A study of Mus musculus with 5 samples.

Results

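Neurons carry a set of transcripts that other cells of the brain largely lack, and 32 genes of this kind were read in RNA sequencing libraries of primary microglia, which are the tissue macrophages that reside there. The 32 genes were taken by symbol from a table of 21983 genes, where each of them has a row, and 18 passed the filter on low counts. The study asked which processes and pathways change in microglia that lose Ythdf2, a cytoplasmic reader of N6-methyladenosine that sends marked mRNAs to decay. Of the 5 libraries, 2 are labelled Cx3cr1CreERT2 Ythdf2fl/fl, in which an inducible Cre recombinase is made from the Cx3cr1 locus that microglia and other mononuclear phagocytes use. The other 3 are labelled Ythdf2fl/fl, and both groups therefore carry the floxed alleles. Age, the inducing agent, its timing, the way the cells were purified and any pooling of animals are not given here by the labels.

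Total counts ran from 13947500 to 19577217 per library, and every pair of libraries differed by more than counting noise (chi-square over its degrees of freedom, 53.4 to 272.5). No label states that they are separate animals or cultures. The p-values below therefore measure the spread between these 5 samples alone, and that spread may be technical. Levels are given in CPM, which are counts relative to a scaled library size. Ythdf2 had 103.5 and 127 CPM in the knockout-labelled libraries, against 57.0, 69.2 and 68.8 CPM in controls 1 to 3. Since Ythdf2 thus ran opposite to the labels, the former are called knockout-labelled libraries, and each direction below rests on those labels. Cx3cr1, the locus that carries the Cre, was below every control under that label, with 337 and 97.7 CPM against 682, 992 and 681 CPM. Reads of exons that a deletion would leave in place also enter a gene count, which is therefore no check of the deletion. Of 12 microglia markers 11 had counts, and their summed level was 4458 and 9000.5 CPM in the knockout-labelled libraries and 8508.5 to 9367.5 CPM in the controls. Trem2, a receptor gene among these 12 markers, was listed at 0 in all 5 libraries, as was Cldn5, an endothelial gene. No source used here names the annotation behind the counts, so a gene listed at 0 throughout may not have been countable, and its 0 is not read here as absent expression.

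The genes cover the machinery that neurons share. RNA-binding proteins of the ELAV and RBFOX families set neuronal splicing and mRNA stability. Tubulin, tau and their partners build axons and dendrites, and neurofilaments give large axons their calibre. SNARE proteins, synaptotagmin and synapsins run the vesicle cycle, while glutamate decarboxylases and vesicular transporters make and load transmitters for receptors on the next cell. In cells that are not neurons, many such genes are held off by the repressor REST, which binds a long element named RE1 and recruits corepressors such as RCOR1 and histone deacetylases.

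The RE1 element was looked for in promoter windows from RefSeq on GRCm38.p6, 250 bases before each gene's start and 50 after it, on both strands. A window existed for 22 of the 32 genes. The full RE1 consensus was found in Gria2, one of these 22, and in 0.0639% of all 32851 windows. The left arm of the element, TTCAGCACC, was found in Syn1 and in 0.371% of all windows. The right arm, GGACAGCG, was found in Gad2 and Gria2 and in 1.26% of all windows, and in Gria2 it overlaps the consensus match. These 3 promoters are shown because they hold the matches, and because Syn1 and Gria2 behaved differently across the libraries. Each is printed 5′ to 3′ along the gene's own strand up to the outermost annotated start, with the matched bases in capitals.
Syn1, chrX:20921005-20921168, minus strand: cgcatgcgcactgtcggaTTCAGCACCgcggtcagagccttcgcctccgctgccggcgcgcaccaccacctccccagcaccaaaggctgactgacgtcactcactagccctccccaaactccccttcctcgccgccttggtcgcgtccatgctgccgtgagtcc
Gria2, chr3:80802836-80803085, minus strand: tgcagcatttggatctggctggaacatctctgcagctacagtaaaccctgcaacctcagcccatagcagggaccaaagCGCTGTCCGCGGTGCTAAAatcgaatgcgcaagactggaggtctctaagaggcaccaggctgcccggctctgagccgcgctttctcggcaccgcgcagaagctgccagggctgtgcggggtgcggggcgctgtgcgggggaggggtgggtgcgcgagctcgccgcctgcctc
Gad2, chr2:22622077-22622204, plus strand: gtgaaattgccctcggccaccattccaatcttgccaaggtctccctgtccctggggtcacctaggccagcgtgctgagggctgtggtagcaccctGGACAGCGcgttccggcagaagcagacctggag
In Gria2 the matches lie on the strand opposite to the gene, 172 to 154 bases before the RefSeq start. In Syn1 the match lies 232 to 224 bases before it, on the gene's own strand. A match in these letters is a description of the sequence and no evidence that REST binds there.

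The level of the whole group was set by a few genes and differed more within each group of libraries than between the groups. Summed over the 32 genes it was 859.6 and 208.9 CPM in knockout-labelled libraries 1 and 2, and 384.5, 380.1 and 108.5 CPM in controls 1 to 3. The group means were 534 ± 460 (SD, n = 2) and 291 ± 158 CPM (SD, n = 3). The highest value was in knockout-labelled library 1, while the other library of that label lay below 2 of the 3 controls, so the groups overlapped. Mapt, Elavl3, Tubb3 and Uchl1 took 27.3%, 25.8%, 14.03% and 12.7% of the summed level. Per length of annotated exons the most abundant were Uchl1 and Tubb3, at means of 30.2 ± 16.3 and 29.2 ± 23.4 RPKM (CPM per kilobase, SD, n = 5). Elavl3 and Mapt followed at 14.6 ± 14.3 and 14.1 ± 14.1 RPKM. Their SDs over the libraries are wide, but the genes were read in the same libraries. Tubb3 was above Elavl3 and Mapt in each of the 5. Uchl1 was the lowest of these 4 in knockout-labelled library 1 and the highest in every other library. Elavl3 and Mapt had no fixed order. Levels above 10 CPM on average were found for 7 of the 32 genes, also including Gria2, Syn1 and Nefm.

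**Figure D1:**
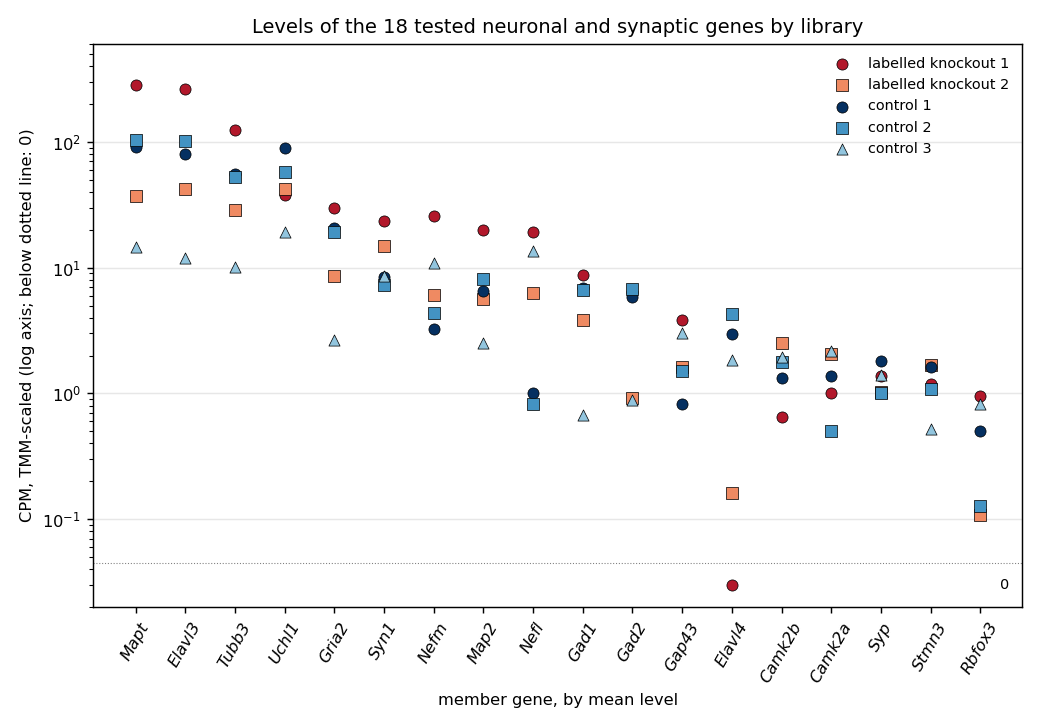
Level of each of the 18 tested genes (x axis, ordered by mean) in each of the 5 libraries, in TMM-scaled CPM on a log axis; each point is 1 library, and points under the dotted line are at 0. Mapt ranges from 14.5 CPM in control 3 to 284.6 CPM in knockout-labelled library 1, while Elavl4 lies lower in both knockout-labelled libraries than in any control.

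No gene of the group passed the test between the labels. In edgeR's quasi-likelihood test 0 of the 18 tested genes reached an adjusted p under 0.05, as did 0% of the 12543 genes of the whole table. At an unadjusted p under 0.05 there were 2, Syn1 on the higher side and Elavl4 on the lower side, where 3.99% of all genes were higher and 2.69% lower. DESeq2 called 1 member, Elavl4, against 1.68% of all genes it adjusted, and limma-voom called 0. The log2 fold change was positive in 13 of the 18 with a median of 0.42, while over all genes tested the median was 0.01 and 51.1% were positive. Without knockout-labelled library 1, 6 of the 21 genes then tested were positive (28.6%), and over all genes tested the share was 44%. Both knockout-labelled libraries lay above all controls in 1 of the 18 and below all controls in 1, against 9.85% and 10.4% of all genes tested (20.3% for both directions).

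**Figure D2:**
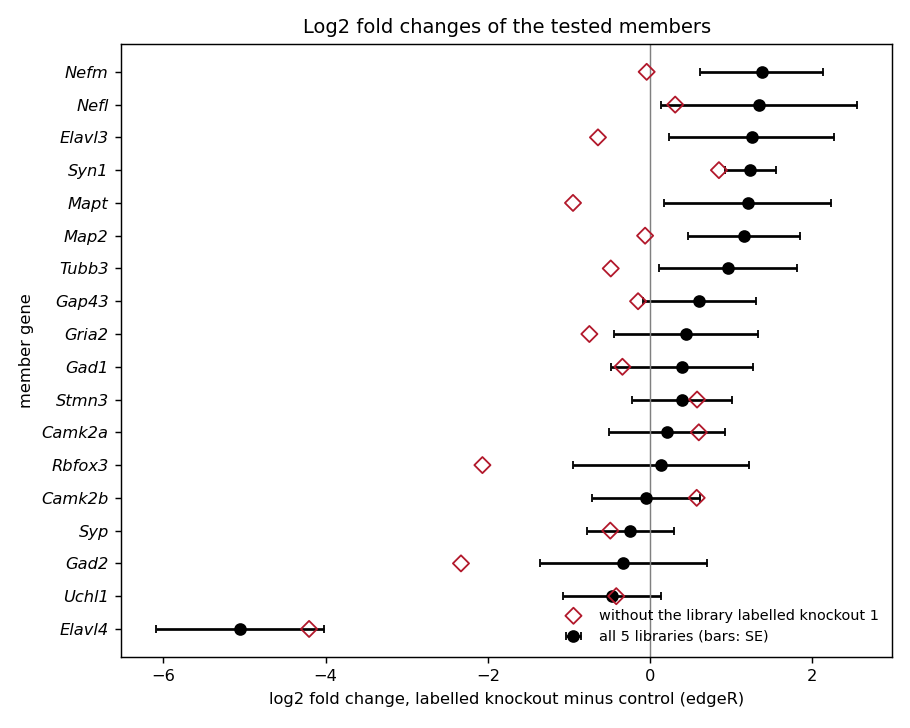
Log2 fold change (x axis, knockout-labelled libraries minus controls) of each tested gene from edgeR. Filled points with SE bars use all 5 libraries and open diamonds leave out knockout-labelled library 1; Elavl3, Mapt and Tubb3 change sign between the fits, while Syn1 and Elavl4 do not.

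Among the RNA-binding proteins, the paralogs Elavl3 and Elavl4 did not share a pattern. Elavl3, which encodes the ELAV-like protein HuC, stood at 265.6 and 42.3 CPM in the knockout-labelled libraries and at 80.1, 101.8 and 11.9 CPM in the controls. It was highest in knockout-labelled library 1 and lowest in control 3, a 22.3-fold span. The mean was 154 ± 158 CPM (SD, n = 2) against 64.6 ± 46.9 CPM (SD, n = 3), and the edgeR log2 fold change was 1.25 (SE 1.01, adjusted p = 0.921). Exons of Elavl3 overlap those of Gm49318 on the same strand. Elavl4, which encodes HuD and is used in maturing neurons, had 0 and 3 reads in the knockout-labelled libraries and 47, 68 and 25 reads in the controls. Both knockout-labelled libraries were therefore below all 3 controls, at 0 and 0.162 CPM against 2.95, 4.31 and 1.86 CPM. Pooled over libraries the control level was 36.5-fold that of the knockout-labelled libraries, with an exact 95% interval of 12.2 to 179 that covers counting error only. The log2 fold change was -5.05 (SE 1.03), with adjusted p = 0.314 in edgeR and 0.000799 in DESeq2. The DESeq2 call of Elavl4 was lost without control 2 (DESeq2 adjusted p = 0.0805), where its DESeq2 log2 fold change was -4.84, against -5.18 with all libraries. Its edgeR log2 fold change was -4.20 without knockout-labelled library 1. Without knockout-labelled library 2 the single library left under that label had 0 reads, and the level there was at least 17.4-fold lower than in the controls, with the floor of 3 counts taken in that library. No exon of another annotated gene overlaps Elavl4, which lies on chromosome 4 at 110203722 to 110351909 on the minus strand of GRCm38 (GENCODE M21). Choroid plexus and immediate early genes separated the same libraries, with all 6 choroid plexus markers above and 5 of 8 immediate early genes below every control. The summed level of the latter was 339 and 716.5 CPM against 853.5 to 1203.5 CPM. Of 5 fibroblast and mural genes 4 lay below every control as well, among them Lum, which did not pass the filter. Summed over the 5, levels were 26.1 and 10.5 CPM against 20.4 to 55.0 CPM, so the groups overlapped. Over all genes tested, 9.85% lay above every control and 10.4% below. The marker lists were chosen with earlier results of these data known, so their counts are a description only. The part of these marker genes in the Elavl4 difference was not tested. Rbfox3, whose product NeuN marks mature neurons, stayed under 1 CPM in every library, at 0.952 and 0.108 against 0.503, 0.127 and 0.818 CPM.

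Of the 6 genes of the microtubule cytoskeleton, 3 had the order of libraries seen in Elavl3. Mapt encodes tau, which stabilises axonal microtubules. It was at 284.6 and 36.9 CPM in the knockout-labelled libraries against 91.3, 103.5 and 14.5 CPM in the controls. Tubb3, the tubulin chain used as a neuronal marker, was at 125 and 28.9 CPM against 56.0, 52.3 and 10.2 CPM. Map2, a microtubule-associated protein of dendrites, was at 20.0 and 5.62 CPM against 6.47, 8.11 and 2.53 CPM. In each of these genes knockout-labelled library 1 was highest, knockout-labelled library 2 lay below controls 1 and 2, and control 3 was lowest. Their edgeR log2 fold changes were 1.20 (SE 1.02) for Mapt, 0.96 (SE 0.846) for Tubb3 and 1.16 (SE 0.688) for Map2, with adjusted p of 0.924, 0.924 and 0.876. Without knockout-labelled library 1 they were -0.95, -0.48 and -0.06. The stathmin genes, which encode proteins that destabilise microtubules, and Dcx, a marker of young migrating neurons, were scarce. Stmn3 was at 1.19 and 1.68 against 1.63, 1.08 and 0.520 CPM, Stmn2 had 0 to 11 reads per library and Dcx 1 to 15 reads.

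Receptor and transmitter genes were low, and those with reads repeated the order of Elavl3 in part. Gria2 encodes the AMPA receptor subunit that limits calcium entry and is also used by oligodendrocyte precursors. It stood at 29.9 and 8.65 CPM against 20.7, 19.1 and 2.68 CPM, with an edgeR log2 fold change of 0.44 (SE 0.887, adjusted p = 0.949). Exons of Gria2 overlap those of Gm25749 on the same strand. Gad1, a glutamate decarboxylase that makes GABA, had 8.68 and 3.84 CPM against 6.85, 6.59 and 0.669 CPM. The second such enzyme, Gad2, was at 6.36 and 0.919 CPM against 5.85, 6.78 and 0.892 CPM. Control 3 was the lowest library for all 3 genes, at close to the level of knockout-labelled library 2 for Gad2. Their log2 fold changes changed sign with a library left out: without knockout-labelled library 1 that of Gria2 was -0.75 and that of Gad1 -0.34, and without knockout-labelled library 2 that of Gad2 was 0.48. The kinase subunit genes Camk2a and Camk2b, of the calmodulin-dependent kinase of synapses, had another order and lay between 0.507 and 2.54 CPM in all libraries.

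The order of libraries seen in Elavl3 was noticed after the values were seen and is given as a description. With knockout-labelled library 1 highest, controls 1 and 2 next, then knockout-labelled library 2, and control 3 lowest, it was found in 6 of the 18 tested genes (33.3%): Elavl3, Tubb3, Map2, Mapt, Gad1 and Gria2. Over all genes tested it was found in 8.93%. The markers of the oligodendrocyte lineage, the cells that make myelin, had this order in 9 of 13. Their summed level was 13392 and 4882 CPM in the knockout-labelled libraries and 11265, 10306 and 1369 CPM in controls 1 to 3, the same order as the summed level of the neuronal genes. All 13 had counts, and Mbp, a main myelin protein, stood at 574 to 4897 CPM. The neuronal sum equalled 6.42% and 4.28% of the oligodendrocyte sum in the knockout-labelled libraries and 3.41%, 3.69% and 7.92% in the controls, so the ratio was not constant. The 9 astrocyte markers summed to 137.9 and 103 CPM against 243.6, 120.4 and 52.0 CPM, with control 3 lowest and control 1 highest. S100b was the largest part of that sum in each library and had the same order. It stood at 101.7 and 70.5 CPM against 190.6, 94.5 and 21.0 CPM. Aldh1l1, the next by mean level, did not share this order, at 15.9 and 18.6 CPM against 15.0, 15.0 and 18.7 CPM. The part of these markers in the neuronal levels was not tested. In bulk RNA, more cells of a type and more RNA per cell cannot be told apart.

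**Figure D3:**
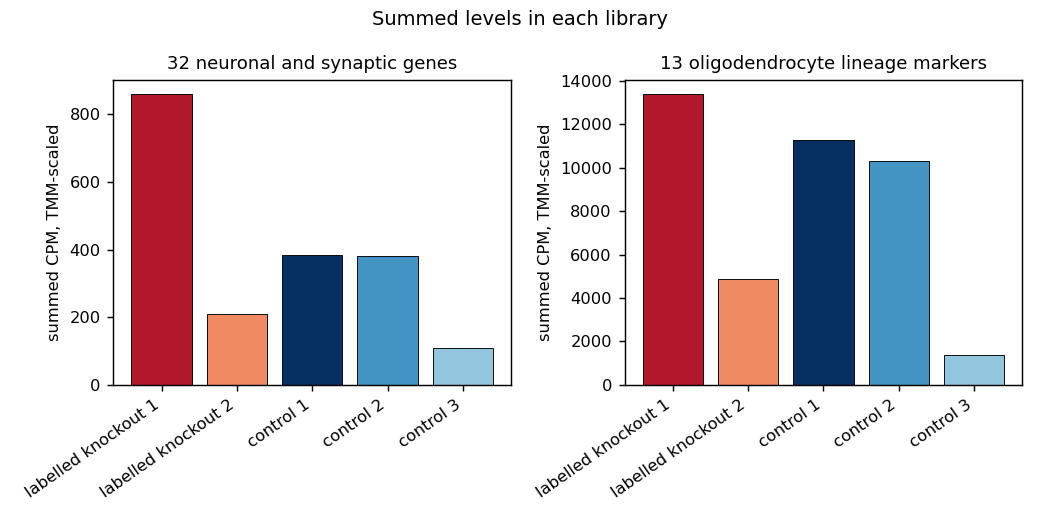
Summed CPM of the 32 neuronal and synaptic genes (left) and of 13 oligodendrocyte lineage markers (right) in each library, with 1 bar per library and no error since each bar is a single library. Both are highest in knockout-labelled library 1 (859.6 and 13392 CPM) and lowest in control 3 (108.5 and 1369 CPM).

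Neurofilament and growth genes ran in another order. Nefl, the light neurofilament chain, stood at 19.3 and 6.32 CPM in the knockout-labelled libraries and at 1.01, 0.824 and 13.5 CPM in the controls. Nefm, the medium chain, was at 25.8 and 6.05 CPM against 3.27, 4.37 and 10.9 CPM. For both genes control 3, the lowest library for Elavl3, was the second highest, and controls 1 and 2 were the lowest. The edgeR log2 fold changes were 1.34 (SE 1.21) for Nefl and 1.38 (SE 0.761) for Nefm, with adjusted p of 0.924 and 0.874. For Nefl it was 3.80 without control 3 and 0.31 without knockout-labelled library 1, and for Nefm it was -0.04 without the latter. DESeq2 called Nefl when control 3 was left out. The exons of Nefl and Nefm overlap on opposite strands of chromosome 14, and the strand setting of the counting is not stated in the labels, so reads of the pair may not be fully separated. Gap43, a membrane protein of growing axons, had a similar order at 3.81 and 1.62 CPM against 0.817, 1.52 and 3.05 CPM. Uchl1, an abundant deubiquitinating enzyme of neurons, differed again, at 37.8 and 42.5 CPM against 90.1, 57.3 and 19.0 CPM. Its log2 fold change of -0.47 (SE 0.604, edgeR adjusted p = 0.929) was 0.07 without control 1. The exons of Uchl1 overlap those of Uchl1os on the other strand.

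Syn1, a synapsin that tethers vesicles to the cytoskeleton, was the only one of the 18 tested genes in which both knockout-labelled libraries exceeded all 3 controls. It stood at 23.3 and 14.9 CPM against 8.42, 7.29 and 8.55 CPM, and the controls differed among themselves by only 1.17-fold. The mean was 19.1 ± 5.98 CPM (SD, n = 2) against 8.09 ± 0.695 CPM (SD, n = 3). The log2 fold change was 1.24 (SE 0.313), with an unadjusted p = 0.00774 and an adjusted p = 0.435 in edgeR's quasi-likelihood test and 0.0676 in DESeq2. With each library left out in turn the edgeR log2 fold change lay between 0.85 and 1.53. DESeq2 called Syn1 in 1 of its 5 fits with a library left out, without knockout-labelled library 2 (adjusted p = 0.0243), where the single library left under that label is assumed to vary like the controls. In the other 4 fits the DESeq2 adjusted p was 0.265 to 0.936. Syn1 lies on chromosome X at 20860511 to 20921004 on the minus strand of GRCm38, and its exons overlap those of Araf on the other strand. Araf had 56.6 and 84.5 CPM against 74.7, 68.4 and 76.0 CPM. These totals do not show how many reads fall in the shared exons, and the part of Araf reads in the Syn1 count was not tested. All 6 choroid plexus markers lay above every control in the knockout-labelled libraries, as did 9.85% of all genes tested. This list was chosen with earlier results of these data known, so its count is a description only. Summed levels of these markers were 157 and 220 CPM against 7.48 to 26.5 CPM. Their part in the Syn1 difference was not tested. Syp, a vesicle membrane protein, stayed between 1.01 and 1.82 CPM in all libraries.

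The 14 genes under the filter had at most 24 reads in any library, among them 3 of the 5 vesicle and release genes and 3 of the 5 transmitter genes. Of the 14, 2 were listed at 0 in every library, Vsnl1, a neuronal calcium sensor, and Slc17a6, a vesicular glutamate transporter. If these genes could be counted, a 0 would allow up to 0.162 to 0.223 CPM (3 counts), depending on the library and for counting error only. As for Trem2, a 0 in every library is not read as absent expression. Snap25, a SNARE protein of every central synapse, had 0 and 1 read in the knockout-labelled libraries and 1, 1 and 0 in the controls. Slc17a7, the other main glutamate transporter, had at most 2 reads, Nrgn, a postsynaptic calmodulin-binding protein, at most 3, and Gria1, another AMPA receptor subunit, at most 4. The calcium sensor of release, Syt1, had 9 and 9 reads against 9, 6 and 0, Syn2 had 14 and 6 against 7, 3 and 3, and Grin1, the obligatory NMDA receptor subunit, had 3 and 1 against 7, 2 and 1. Thy1, a surface protein also found on T cells and fibroblasts, had 0 and 7 reads against 20, 2 and 5, and Nefh, the heavy neurofilament chain, had 9 and 0 against 1, 1 and 1. Slc32a1, which loads GABA into vesicles, was the exception in this low group. It had 24 and 8 reads in the knockout-labelled libraries and 0 in each control, so that it was at least 13.6-fold higher, with the floor of 3 counts taken over the control group. DESeq2 gave it an adjusted p = 0.0953, and its exons overlap those of Gm14205 on the other strand.

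**Figure D4:**
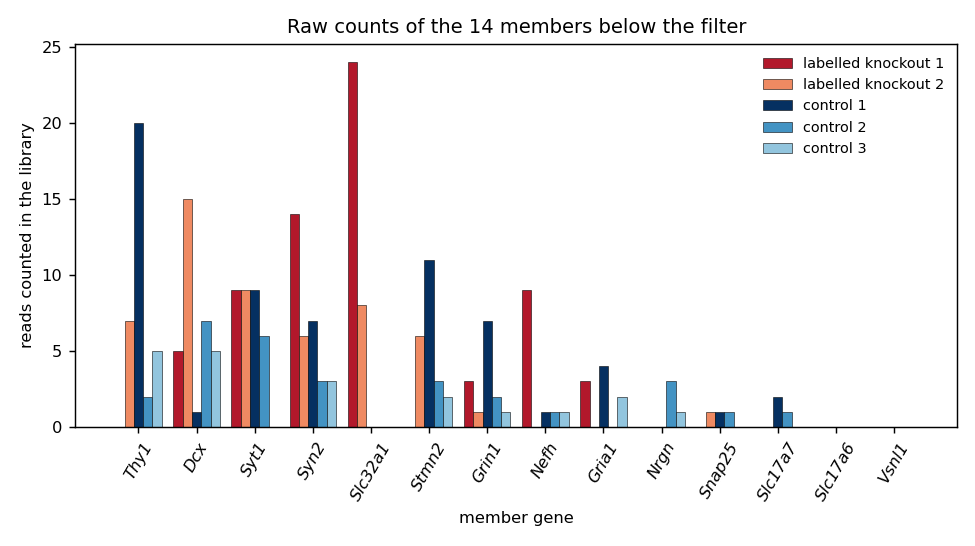
Reads counted in each library (y axis) for the 14 genes that did not pass the filter on low counts, with 1 bar per library. Slc32a1 has 24 and 8 reads in the knockout-labelled libraries and 0 in the controls, while Snap25 has at most 1 read in any library.

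Further neuronal genes from a list of vesicle, receptor, cytoskeletal, channel, transcription factor and peptide genes also gave no call in edgeR, and many had the order of libraries seen in Elavl3. Of 89 further genes 62 were tested, and edgeR called 0 of them, with 3 higher and 2 lower at an unadjusted p under 0.05 (8.06%, against 6.68% of all genes tested), while limma-voom called 0. Of the 62 log2 fold changes 46 were positive and 16 negative, and their median was 0.58, and without knockout-labelled library 1 there were 16 positive of 62 (25.8%, against the 44% of all genes). In 22 of the 62 (35.5%) the libraries had the order described for Elavl3. Map1a, a microtubule-associated protein, was the most abundant at 1640 and 178 CPM against 370, 541 and 56.7 CPM. Syt4, an atypical synaptotagmin, was next at 751.5 and 138 CPM against 369, 533 and 79.3 CPM. DESeq2 called 1 of the 71 further genes it adjusted, against 1.68% of all genes it adjusted. The gene was Cacna1a, a presynaptic calcium channel subunit, with 46.7 and 40.8 CPM against 115, 97.2 and 133 CPM. Its log2 fold change was -1.39, with an edgeR adjusted p = 0.262. L1cam and Crmp1, both of axon growth, lay above every control, at log2 fold changes of 1.81 and 1.61 with edgeR adjusted p of 0.645 and 0.693. The genes listed at 0 throughout were Rab3a, Rims1, Grin2b, Nrxn2, Neurod2, Neurod6, Tbr1, Sst and Vip.

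The genes of the REST complex had counts in all libraries, with log2 fold changes from -0.38 to 0.31. Rest itself was at 49.0 and 58.8 CPM in the knockout-labelled libraries and at 45.9, 41.4 and 44.2 CPM in the controls, with a log2 fold change of 0.30 (edgeR adjusted p = 0.889). Rcor1, its corepressor, had 86.0 and 92.3 CPM against 83.3, 85.7 and 84.1 CPM, and Ehmt2, a histone methyltransferase, was the most abundant at 324 and 320 CPM against 234 to 278 CPM. Of the 10 genes edgeR called 0 and 0 had an unadjusted p under 0.05, DESeq2 and limma-voom also called 0, and the median log2 fold change was 0.02. In 3 of them both knockout-labelled libraries lay above all controls and in 1 below, against the 9.85% and 10.4% of all genes tested given above.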

How the data were processed

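The authors deposited whole-number read counts per gene symbol for 5 libraries of primary microglia from mouse brain. The tools were FastQC, STAR and HTSeq and the build was mm10, per the submitters' processing notes. Versions, annotation and strand setting are not stated there. Extraction used Trizol and library preparation a NEBNext Ultra kit, per the labels' protocols. Groups and numbers came from the titles; that of the third control carries a second number, and its library number was used.

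The main test was edgeR 4.0.16 (R 4.3.3) with filterByExpr, TMM factors and the robust quasi-likelihood F test, two-sided, with Benjamini-Hochberg adjustment over 12543 genes, an adjusted p threshold of 0.05; 3 degrees of freedom remained. SE is the log2 fold change divided by the root of F. CPM is relative to TMM-scaled library sizes, and RPKM values divide them by the union of exons in GENCODE M21, where all 32 genes matched. DESeq2 1.42.0, limma-voom (limma 3.58.1), other scalings and filters, a replicate block and each library left out were alternatives. The fits were tested on simulated data. The members and lists were chosen with earlier results of these data known. Each gene that passed the filter was named with its values, and others by their reads. From other lists up to 4 genes of smallest unadjusted p and 2 of highest mean were named, plus Rest, Araf and genes listed at 0. Some genes that met this rule are not reported here.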

Additional observations from a re-analysis of the deposited data

How the results depend on the processing

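The count of 0 genes called by edgeR, over the whole table and among the neuronal genes, was kept under 3 other scalings, both other filters and limma-voom, and with each library left out (0 to 0). DESeq2 called 232 genes, of which 1 was neuronal and 1 in the further neuronal list. DESeq2 with a control left out, added after seeing the data, called 0 to 2 neuronal genes. The share of all genes called in those fits is not given, so these calls cannot be set against it. The replicate block gave 4 genes over the table and 0 neuronal ones. No label says that a shared number marks a pairing. Deviations from the group mean correlated at 0.15 and -0.56 between same-numbered libraries. Those of the 2 knockout-labelled libraries are mirror images of each other, so these values cannot decide on a pairing. Under the block Gad1 (-0.21) and Gria2 (-0.30) turned negative. With a library left out, 1 to 11 tested genes lay above all controls and 1 to 2 below. The 11 came without knockout-labelled library 2, where a single library was set against the controls. No share of all genes is given for these counts. With all libraries, knockout-labelled library 1 was highest in 11 of the 18 tested genes and in 30.3% of all genes. It was lowest in 2 of the 18 and in 33.1% of all genes. The log2 ratio of the summed level, 0.88 with all libraries, ran from -0.48 without knockout-labelled library 1 to 1.56 without knockout-labelled library 2.

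Leaving out 1 library turned the log2 fold change of 13 of the 18 genes. From lowest to highest it ran from -0.64 to 2.04 for Elavl3, -2.07 to 1.01 for Rbfox3, -0.48 to 1.66 for Tubb3, -0.061 to 1.80 for Map2, -0.95 to 2.03 for Mapt and -0.042 to 2.08 for Nefm. It ran from -0.15 to 1.21 for Gap43, -0.87 to 0.073 for Uchl1, -0.34 to 0.87 for Gad1, -2.33 to 0.48 for Gad2, -0.75 to 1.07 for Gria2, -0.39 to 0.70 for Camk2a and -1.34 to 0.58 for Camk2b. Leaving out knockout-labelled library 1 turned 10 of these 13. limma-voom gave -0.20 for Rbfox3. The cause was not tested. The other 5 genes, Elavl4, Stmn3, Nefl, Syn1 and Syp, kept their direction in every fit run. Fewer than 3 reads in each library left 4 genes without a usable comparison, 1 read being worth 0.054 to 0.0743 CPM.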
